A study of Mus musculus with 5 samples.

Results

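The regions described here were the far intergenic acetylated regions of memory-type CD8+ T cells: stretches of acetylated chromatin that overlapped no annotated gene and lay more than 50 kb from the start site of any protein-coding transcript. They were chosen by their position and by the presence of a peak, not by fold or genotype. The peaks of 5 chromatin immunoprecipitation (ChIP-seq) libraries were merged wherever they overlapped by at least 1 bp, and a merged region counted as a consensus region once 2 or more libraries had a peak there. Of 10423 consensus regions, 649 were far intergenic, after 5 regions before 3.1 Mb of chromosome 9 were set aside. The remaining regions comprised 5756 at coding promoters (within 3 kb of a coding start site), 2858 within genes but away from coding promoters, and 1155 intergenic ones at 3 to 50 kb.

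The study immunoprecipitated acetylated histones from mouse CD8 cells made into memory T (TM) cells in vitro with the cytokine interleukin 15 after activation of ovalbumin-specific OT-I cells by their peptide. The genotypes compared were wildtype (WT, 2 libraries) and TPdh-/- (3 libraries, called PDH mutant by the labels), in which a floxed Pdha1 gene (B6.129P2-Pdha1tm1ptl/J mice), encoding a subunit of pyruvate dehydrogenase, is removed by a Cre recombinase under the Cd4 promoter and hence in T cells generally. For its ChIP-seq the paper gives a larger number per condition than the libraries used here. The mice were 8 to 12 weeks old and of both sexes. The antibody was raised against acetyl-lysine of histones, and the labels name acetylated K18. No label says whether the libraries came from separate mice, so a p-value here measures only the spread between these libraries.

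Histone acetylation away from promoters is a mark of active enhancers, which can act on a gene over long distances. Genes for developmental regulators are often bordered by gene deserts, long stretches without coding genes, and in T cells such deserts are known to hold enhancers of lineage transcription factors. Pyruvate dehydrogenase makes acetyl-CoA, the donor of the acetyl group, from pyruvate.

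The lists themselves differed in length. WT 1 had 15962 peaks and WT 2 had 8859, against 4920, 5419 and 9418 peaks in TPdh-/- 1, 2 and 3, so that the length of TPdh-/- 3 was closer to WT 2 than to the other TPdh-/- libraries. Read numbers per library were not given in the sources used here, and what set the list lengths was not tested. Peaks lay within 3 kb of a start site for 2 to 7 of 8 genes listed for CD8 T cells in each library. That list also held genes of T cells generally, such as Cd3e and Lck, so its count does not tell CD8 from CD4 T cells. Of its CD8 genes, Cd8b1 had a peak in every library and Cd8a in WT 1 alone. Peaks were found for 2 and 1 of 2 CD4 T cell genes in WT and 0 in each TPdh-/- library. The counts were 0 or 1 of 4 B cell genes and 0 of 4 myeloid genes. The Cd4 gene thus had a peak in both WT libraries and in no TPdh-/- library, also not in TPdh-/- 3, whose list is longer than that of WT 2. What part this has in the differences between genotypes was not tested.

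The windows printed here show what these sequences look like. The first 3 are the regions with the highest mean fold among those found in all 5 libraries in the 3 gaps between coding genes that held the most members. The next is the member with the highest mean fold over the libraries, then the one with the highest lower fold among members found in both WT libraries and no TPdh-/- library, and last the member farthest from any coding gene start. Each is the 300 bases around the midpoint, on the plus strand of GRCm38. Capitals mark matches on either strand to 6 motifs of factors that act in T cells: TGANTCA (AP-1), TGTGGT (RUNX core), CCGGAA (ETS core with a CpG), ACAGGAA (an ETS form found in lymphoid enhancers), CTTTGA (TCF and LEF core) and CAGCTG (E-box).
Foxo1 to Cog6 gap, chr3:52618424-52618723: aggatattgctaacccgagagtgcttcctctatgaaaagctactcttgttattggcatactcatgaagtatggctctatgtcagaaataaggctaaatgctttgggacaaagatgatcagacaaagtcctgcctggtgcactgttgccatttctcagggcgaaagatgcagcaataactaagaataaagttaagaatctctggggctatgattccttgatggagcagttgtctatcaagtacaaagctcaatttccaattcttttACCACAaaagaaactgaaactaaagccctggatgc
Id2 to Rnf144a gap, chr12:26068584-26068883: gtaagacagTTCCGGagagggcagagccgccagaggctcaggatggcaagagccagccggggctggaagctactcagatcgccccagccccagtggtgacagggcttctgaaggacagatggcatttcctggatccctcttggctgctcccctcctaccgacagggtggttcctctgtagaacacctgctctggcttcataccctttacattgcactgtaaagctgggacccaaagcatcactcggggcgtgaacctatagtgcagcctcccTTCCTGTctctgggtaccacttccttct
Gm5426 to Btg1 gap, chr10:96201366-96201665: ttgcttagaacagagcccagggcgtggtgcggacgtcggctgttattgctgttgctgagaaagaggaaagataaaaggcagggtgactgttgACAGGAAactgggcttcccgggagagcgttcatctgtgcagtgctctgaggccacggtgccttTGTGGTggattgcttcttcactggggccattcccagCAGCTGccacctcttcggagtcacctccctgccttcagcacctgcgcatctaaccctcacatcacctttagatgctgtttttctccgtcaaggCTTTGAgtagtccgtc
Highest mean fold, chr12:74804054-74804353: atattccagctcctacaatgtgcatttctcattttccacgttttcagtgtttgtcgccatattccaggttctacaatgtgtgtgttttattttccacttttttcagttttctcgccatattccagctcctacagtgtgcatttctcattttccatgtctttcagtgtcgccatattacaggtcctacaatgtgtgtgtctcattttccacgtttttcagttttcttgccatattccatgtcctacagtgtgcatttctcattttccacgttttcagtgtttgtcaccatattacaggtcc
Both WT and no TPdh-/- library, chr15:37135558-37135857: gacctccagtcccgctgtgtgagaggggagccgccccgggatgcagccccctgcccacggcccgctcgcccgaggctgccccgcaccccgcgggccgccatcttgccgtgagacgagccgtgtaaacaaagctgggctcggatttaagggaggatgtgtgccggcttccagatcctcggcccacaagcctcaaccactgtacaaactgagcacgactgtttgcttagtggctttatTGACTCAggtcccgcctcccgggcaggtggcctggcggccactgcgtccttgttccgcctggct
Farthest from a coding start site, chr5:59670712-59671011: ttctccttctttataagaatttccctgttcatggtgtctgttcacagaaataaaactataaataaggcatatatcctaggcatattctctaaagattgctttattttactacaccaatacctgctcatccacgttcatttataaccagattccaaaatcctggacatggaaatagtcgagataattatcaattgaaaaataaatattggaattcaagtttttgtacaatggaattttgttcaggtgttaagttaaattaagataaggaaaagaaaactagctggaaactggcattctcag

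The 3 windows in the gaps were 0 to 13.3% repeat and 40.7 to 58.0% G+C, with 1, 2 and 4 motif matches, and the window of the Gm5426 to Btg1 gap held RUNX, lymphoid ETS, TCF and E-box letters together. The window of the highest mean fold was tandem repeat: the letters ccatatt, searched for after the sequence was seen, came back 5 times at a spacing of 55 to 58 bases, and repeat masking covered 75.7% of the window. The WT-only window was 66.0% G+C with 1 AP-1 match, whereas the window farthest from genes was 31.3% G+C with no match.

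Across all 649 members, the central 300 bases held the AP-1 letters in 11.7%, the RUNX core in 28.4%, lymphoid ETS in 19.0%, the TCF and LEF core in 21.3%, the E-box in 13.9% and the ETS core with a CpG in 5.24%. Over all consensus regions these shares were 7.44, 20.9, 14.5, 16.5, 15.4 and 18.3%, and coding promoters stood at the other end, with AP-1 in 4.73%, RUNX in 13.0% and the CpG-holding ETS core in 26.9%. Against intergenic regions at 3 to 50 kb, which are the closest in kind, the share of members with the E-box was lower by 6.68 ± 1.56 percentage points (SD over 5 libraries) and that with the CpG-holding ETS core was lower by 4.05 ± 0.935 points, in 5 of 5 libraries each. Both had p = 0.0625 by a two-sided exact sign-flip permutation test over the libraries, the smallest p that 5 libraries allow, and 0.125 after adjustment over the 6 motifs (Benjamini-Hochberg). Motifs are fixed by the sequence, and every region counted had a peak in 2 or more libraries. The libraries thus recounted many of the same regions, and the SD and p do not measure independent replicates. The TCF and LEF core was lower by 1.66 ± 2.33 points, also in 5 of 5 libraries (exact permutation p = 0.0625, adjusted 0.125), the RUNX core was lower by 1.70 ± 1.65 points and lymphoid ETS was lower by 2.24 ± 2.36 points (exact permutation p = 0.125 each, adjusted 0.15). These 3, which were more frequent in members than over all consensus regions, were thus not more frequent than in the nearer intergenic regions. The AP-1 share differed by 0.553 ± 1.13 points (exact permutation p = 0.375).

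Far intergenic regions were sparse. The genome outside genes and beyond 50 kb of a coding start site measured 955 Mb, 36.1% of the sequence, and held 0.679 members per Mb. Sequence within genes held 2.61 regions per Mb, intergenic sequence at 3 to 50 kb 2.71, and coding promoters 33.3. Chromosome 15 was the most densely occupied, with 44 members at 1.17 per Mb, and the sex chromosomes the least, with 21 members on X at 0.279 per Mb and 2 on Y at 0.0294 per Mb. The mice were of both sexes, and the part of X and Y copy number or of unique mapping in these densities was not tested. Interspersed and simple repeats made up 44.1% of the open sequence, whereas the median member was 18.7% repeat.

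Members were 599 to 6255 bp wide with a median of 1518 bp, and their distance to the nearest coding start site had a median of 102 kb and a maximum of 1948 kb. The member just inside the limit lay at 50.001 kb and the region just outside it at 49.957 kb. The 5 widest members all lay towards a chromosome end with no coding gene on that side, 2 of them on Y, and were 43.7 to 83.5% repeat. In all, 23 members lay in the first sequenced Mb of a chromosome, and 13 of these had a peak in every library. Although no member overlapped a gene of any kind, 41 lay within 3 kb of a noncoding start site, 16 of them of long noncoding RNAs and 11 of pseudogenes.

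Peaks were found at 596 and 476 members in WT 1 and WT 2, and at 276, 278 and 485 members in TPdh-/- 1, 2 and 3. The WT mean was 536 ± 84.9 (SD, n = 2) and the TPdh-/- mean 346 ± 120 (SD, n = 3). In bulk chromatin, fewer cells with acetylation at a region and less acetylation per cell cannot be told apart. TPdh-/- 3 lay above WT 2, so the groups overlapped, and the log2 difference of 0.67 did not exceed the spread between libraries (two-sided exact permutation test, p = 0.4; the smallest p for 2 against 3 libraries is 0.2). The same order held for the other consensus regions, of which 98.9, 77.7, 44.7, 47.3 and 84.0% were called, against 91.8, 73.3, 42.5, 42.8 and 74.7% of members. The share of members called less that of other regions was below 0 in every library, at -9.32 to -2.13 percentage points, and averaged -5.71 ± 1.96 points in WT and -5.30 ± 3.67 in TPdh-/- (exact permutation p = 1).

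**Figure D1:**
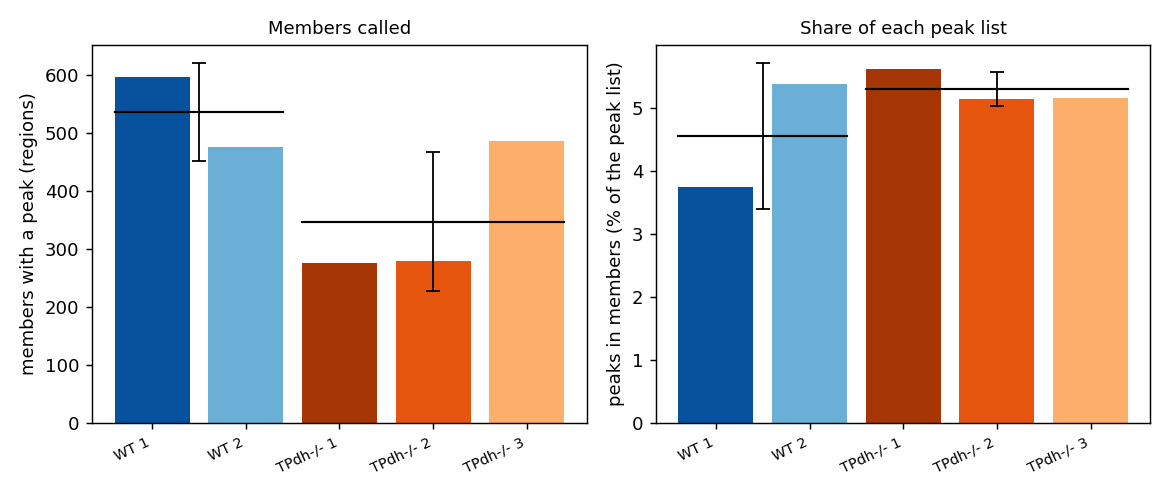
Far intergenic regions in each library. Left, bars give the number of the 649 members with a peak; right, bars give the percent of the library's peaks that lay in members. Horizontal lines are group means with SD (n = 2 and n = 3). TPdh-/- 3, with 485 members, stood above WT 2, with 476.

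As a share of each list, members took 3.73% of the peaks of WT 1 and 5.37% of WT 2, and 5.61, 5.13 and 5.15% in TPdh-/- 1, 2 and 3. WT 1, the longest list, was the lowest, and WT 2 lay within the range of the TPdh-/- libraries. The WT mean was lower by 0.743 percentage points (exact permutation p = 0.6), a difference that was -0.258 without WT 1, -1.88 without WT 2 and -1.12 without TPdh-/- 3. The log2 difference in members called was 0.42 without WT 1. With lists cut to equal length by their q-values, the log2 difference in members called turned to -0.15 (exact permutation p = 0.6). Such a cut also takes away any difference between genotypes in the number of acetylated sites, so it cannot tell what set the direction.

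Presence by library is given against its share over all 10423 consensus regions. All 5 libraries had a peak at 156 members (24.0%, against 29.7% of all regions), and 253 members were found in exactly 2 libraries (39.0%, against 27.2% of the other consensus regions). Both WT libraries and no TPdh-/- library had a peak at 78 members (12.0%, against a background of 10.4%). WT 1 and TPdh-/- 3 alone, a pair that crosses the genotypes, shared 97 members (14.9%, against 13.3%). All 3 TPdh-/- libraries and no WT library had a peak at 1 member (0.154%, against 0.048%, which was 5 regions). These counts moved with single libraries and with list length. Without TPdh-/- 3 the WT-only members numbered 161, without WT 2 the members of WT 1 and TPdh-/- 3 alone numbered 181, and the single TPdh-/- member became 6 without WT 1 and 6, 2 and 9 without TPdh-/- 1, 2 and 3. Leaving out a library takes a condition away from the pattern, so a rise in these counts was built in. With lists of equal length, 8 members were found in both WT libraries alone and 7 in all 3 TPdh-/- libraries alone.

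By the lower of its 2 WT folds, the strongest of the WT-only members lay between Zfp706, a zinc finger gene, and Grhl2, an epithelial transcription factor, and is the fifth sequence printed above (chr15:37135347-37136069). Its fold enrichment was 3.63 in WT 1 and 3.39 in WT 2, with no peak in the 3 TPdh-/- libraries. The next by this measure, on the X chromosome beside the corepressor gene Bcor, had a fold of 3.44 and 3.16, and another on X, between Zxdb and Spin4, had 3.85 and 2.99. The fourth lay 282 kb from Lingo2 with folds of 2.62 and 2.75 at 26.7% G+C, and the fifth between Prickle1 and Adamts20 with 2.67 and 2.59. These 5 were picked for their fold in WT, and fold in a library without a peak was not measured. The single TPdh-/- member, between Igbp1b and Rergl (chr6:139063026-139065416, 29.6% G+C), had folds of 2.52, 2.73 and 2.32.

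Fold enrichment, the ratio of ChIP signal over background that the peak caller reports for each broad peak, had a median of 2.18 and 2.33 over member peaks in WT and of 2.47, 2.40 and 2.26 in TPdh-/-. The shorter the list, the higher was its median fold, and the groups overlapped (exact permutation p = 0.4). Median peak width was 1376 bp in WT 1, 1068.5 in WT 2, and 940.5, 926 and 1124 bp in the TPdh-/- libraries (exact permutation p = 0.4). The 156 members found in every library allow a comparison over the same regions. Their median fold was 2.34 and 2.42 in WT and 2.48, 2.34 and 2.32 in TPdh-/-, a log2 difference of 0.0027 (exact permutation p = 1). Both WT folds exceeded all 3 TPdh-/- folds at 18 of the 156 (11.5%, against 12.6% of the 3099 regions found in every library), and fell below all 3 at 24 (15.4%, against 11.6%).

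**Figure D2:**
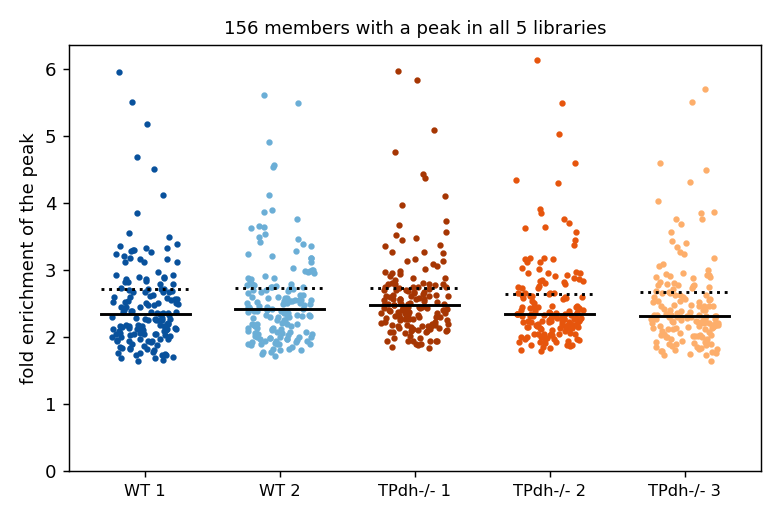
Fold enrichment of the 156 far intergenic regions with a peak in every library. Each point is 1 region, the solid line is the median of these regions, and the dotted line is the median of the 2943 other consensus regions found in every library. Medians of the members lay between 2.32 and 2.48, below the dotted lines at 2.65 to 2.74 in each library.

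Within each library, member peaks had a lower fold than peaks in the other consensus regions, by 0.15 ± 0.0382 on the log2 scale (SD over 5 libraries), and were wider by 0.07 ± 0.0398, in 5 of 5 libraries (two-sided exact sign-flip permutation test, p = 0.0625 for each; adjusted 0.0804 over 18 tests). Their G+C content was lower by 7.13 ± 0.38 percentage points, and repeat masking was higher by 7.22 ± 0.753 points, again in 5 of 5 libraries with the same p. Coding promoters made up most of that contrast. Against regions within genes, the fold differed by -0.0006 ± 0.0192 on the log2 scale (exact permutation p = 0.938) and the width by -0.01 ± 0.0274 (exact permutation p = 0.5). Against intergenic regions at 3 to 50 kb, the fold was lower by 0.02 ± 0.009 on the log2 scale in 5 of 5 libraries (exact permutation p = 0.0625), and the calls were lower by 3.57 ± 2.75 points in 5 of 5 libraries (exact permutation p = 0.0625). Repeat content ran opposite to the first contrast there and was lower by 1.96 ± 0.601 points in 5 of 5 libraries, while G+C content was lower by 2.22 ± 0.255 points (exact permutation p = 0.0625 each). G+C and repeat content are fixed by the sequence of regions shared between libraries, so 5 of 5 libraries are not independent results for them. Nor are they for the calls, since the same calls decided which regions were counted.

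The highest folds sat largely on repeats: of the 8 members with the highest mean fold among those found in every library, 6 were over 50% repeat. The member at the top by mean fold (chr12:74803905-74804503, 92.7 kb from Kcnh5, 83.6% repeat), whose tandem sequence is printed above, had folds of 5.97 and 5.61 in WT and of 5.98, 5.50 and 5.70 in TPdh-/-. A member near the start of chromosome 13 (chr13:3373201-3374639, 63.4% repeat) followed with 5.19 and 5.50 in WT and 5.10, 6.15 and 4.50 in TPdh-/-, and one between Tecrl and Epha5 (100% repeat) with 4.69 and 4.91 in WT and 5.85, 5.04 and 4.31 in TPdh-/-. The groups overlapped at all 3. An exception to the repeat content lay 64.9 kb from Cr2, the complement receptor gene of B cells, towards the end of chromosome 1 (chr1:195241573-195242423), at 21.3% repeat and 566 bp from a small noncoding RNA gene. Its folds were 5.51 and 4.54 in WT and 4.38, 4.31 and 5.51 in TPdh-/-.

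Members by repeat content followed the same line. The 14 members of 75% repeat or more had a peak in every library in 57.1% of cases and the 27 members of 50 to 75% in 44.4%, against 16.7% of the 174 members of 25 to 50% and 24.7% of the 434 below that. The authors kept only uniquely mapped reads and removed blacklisted regions before calling peaks, and the part of either step in the folds at repeats was not tested.

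Members deep in the deserts are given apart from the rest. Of 62 members beyond 500 kb from a coding start site, WT 1, the longest list, had a peak at 34 (54.8%) and TPdh-/- 3 at 30 (48.4%), whereas they had peaks at 95.7 and 77.5% of the 587 nearer members. WT 2 had a peak at 39 (62.9%, against 74.5%), TPdh-/- 1 at 22 (35.5%, against 43.3%) and TPdh-/- 2 at 31 (50.0%, against 42.1%). Only 3 of the 62 were found in every library and 43 were found in exactly 2. The change in the share called, beyond 500 kb less nearer, ran from -40.9 points in WT 1 to 7.92 in TPdh-/- 2, with a mean of -16.3 ± 19.1 (exact sign-flip permutation p = 0.188), and WT did not differ from TPdh-/- in it beyond the spread (exact permutation p = 0.4). Median fold was higher beyond 500 kb in 5 of 5 libraries, by 0.10 ± 0.0256 on the log2 scale (exact permutation p = 0.0625).

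These regions were very rich in A and T. Median G+C was 29.5% in the 62 members beyond 500 kb and 45.7% in the nearer 587, while the open sequence beyond 500 kb from a coding start site, 241 Mb in all, averaged 37.6%. In all, 74 members (11.4%) were under 35% G+C, a limit chosen after the values were seen, 47 of them beyond 500 kb, against 1.82% of regions within genes, 1.13% of intergenic regions at 3 to 50 kb and 0.278% of coding promoters. Peaks at these 74 were found in 31 and 47 cases in WT 1 and WT 2, and in 25, 43 and 29 in TPdh-/- 1, 2 and 3. WT 2 and TPdh-/- 2, 1 library of each genotype, stood highest. As a share of the members each library called, they made up 5.20 and 9.87% in WT and 9.06, 15.5 and 5.98% in TPdh-/-, a difference of 2.63 points that the spread covers (exact permutation p = 0.8).

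Members made up a large share of the regions that WT 1, the longest list, missed. Only 158 of the 10423 consensus regions lacked a peak in WT 1, and 53 of them (33.5%) were far intergenic, 43 of those under 35% G+C. For the other libraries, far intergenic regions made up 6.45 to 9.52% of the regions without a peak. Whether base composition had a part in these calls was not tested.

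**Figure D3:**
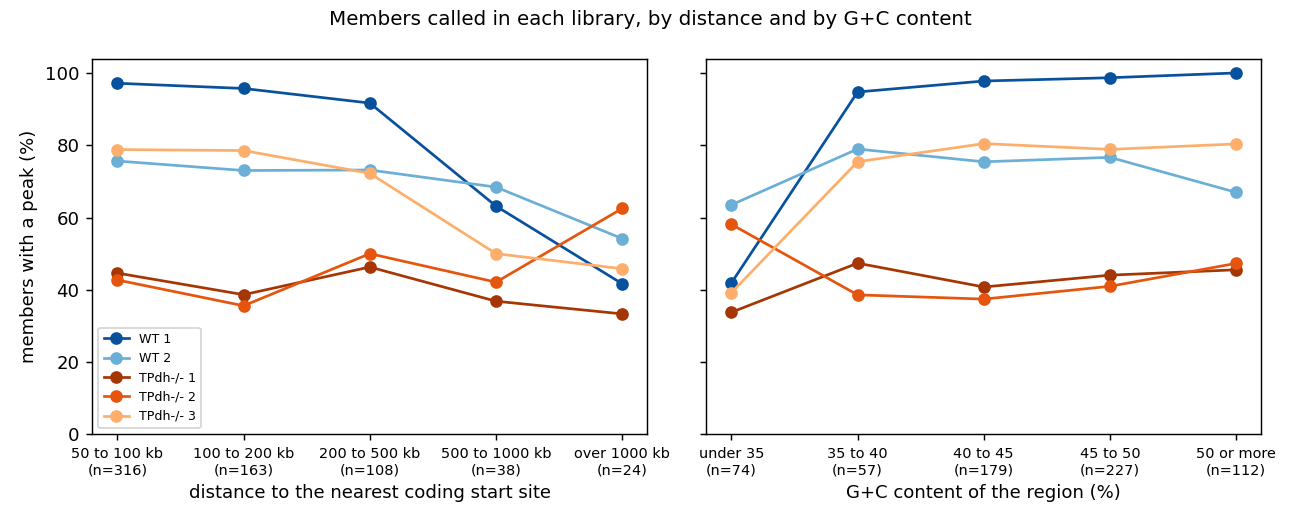
Percent of far intergenic regions with a peak in each library, by distance to the nearest coding start site (left) and by G+C content (right), with the number of members in each class below it. WT 1 went from 97.2% at 50 to 100 kb to 41.7% beyond 1000 kb, and from 94.7% at 35 to 40% G+C to 41.9% under 35%, whereas TPdh-/- 2 was highest beyond 1000 kb, at 62.5%, and under 35% G+C, at 58.1%.

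The 5 members farthest from a coding start site show the range. The farthest of all (chr5:59670310-59671414, 1948 kb from the start of the protocadherin gene Pcdh7, 32.7% G+C) had a fold of 2.41 in WT 2, 2.63 in TPdh-/- 2 and 2.29 in TPdh-/- 3, with no peak in WT 1 or TPdh-/- 1. One between Slc39a10 and Tmeff2 (28.2% G+C) had 2.72 in WT 2 and 2.30 in TPdh-/- 3 alone, and one between Nudt12 and Efna5 (30.4% G+C) had 2.43 in WT 2 and 2.52 in TPdh-/- 2 alone. A member between Stim2 and Pcdh7 (32.7% G+C) was found in TPdh-/- 1 and 2 only, with 3.08 and 2.59. The exception, between Cntnap5b and Cdh20 (44.7% G+C), had a peak in 4 libraries, with 2.92 and 2.55 in WT and 2.72 and 2.56 in TPdh-/- 1 and 3.

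Gaps between neighbouring coding genes were counted where a coding gene was known on both sides. Members fell into 399 such gaps, of which 264 held 1 member, 88 held 2 and 47 held 3 or more. The 47 gaps held 185 members (28.5%), and 25 of them were gene deserts of at least 500 kb with 98 members. Without WT 1, 24 gaps held 3 or more. Of the 5 gaps with the most members, 4 are described in turn, in the order of their count.

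The 629 kb between Foxo1, a forkhead factor of naive and memory T cells, and Cog6, a Golgi trafficking gene, on chromosome 3 held 9 members over 535 kb. WT 1 and WT 2 had a peak at 9 of 9, and TPdh-/- 1, 2 and 3 at 2, 1 and 6, where these libraries called 91.8, 73.3, 42.5, 42.8 and 74.7% of all members. The groups did not overlap here, and the test gave the smallest p that this design allows (two-sided exact permutation test, p = 0.2, or 0.4 adjusted over the 5 gaps). The gap was chosen for its number of members, a number that rests on the same calls. Its 3 members found in WT alone became members through their WT peaks. The lack of overlap and the p therefore cannot measure a difference between the genotypes.

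The member found in every library, whose sequence is printed above, lay 264 kb from the end of Foxo1 and had folds of 2.01 and 2.07 in WT and of 2.71, 2.40 and 2.26 in TPdh-/-, so that here all 3 TPdh-/- folds exceeded both WT folds. Nearest to Foxo1, at 42.4 kb from its end, a member of 2327 bp had 1.86 and 1.77 in WT and 2.11 and 2.10 in TPdh-/- 1 and 3. At 105 kb, a member of 2212 bp had 2.20 and 2.38 in WT and 2.08 in TPdh-/- 3. Another 3 members, at 145, 294 and 486 kb, were found in WT alone, with folds of 1.92 and 2.02, 1.99 and 1.91, and 1.64 and 1.73. The last 3, at 291, 524 and 576 kb, were found in both WT libraries and TPdh-/- 3, with folds of 1.66 to 2.05. The Foxo1 promoter itself held no consensus region.

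The desert of 1204 kb between Id2, an inhibitor of E proteins used by effector CD8 T cells, and the ubiquitin ligase gene Rnf144a on chromosome 12 held 8 members over 830 kb. Peaks were found at 8 and 5 of them in WT and at 4, 4 and 6 in TPdh-/- (exact permutation p = 0.4). A pair lay at 142 and 158 kb from Id2, the first in WT 1 and TPdh-/- 3 (2.12 and 2.05) and the second in WT 1 and TPdh-/- 1 (2.01 and 2.24). The other 6 lay between 686 and 971 kb from Id2, and 3 of these had a peak in every library. At 766 kb the folds were 1.97 and 1.94 in WT and 2.08, 1.97 and 2.03 in TPdh-/-. At 860 kb, in the widest member of the gap with 2842 bp, they were 1.94 and 1.97 in WT and 2.18, 1.94 and 1.82 in TPdh-/-. At 971 kb, the sequence printed above, they were 2.03 and 1.94 in WT and 2.32, 1.95 and 2.14 in TPdh-/-. The groups overlapped at all 3. The member at 821 kb had the highest fold of the gap, 2.44 in WT 1, with 2.33 in WT 2 and 2.22 in TPdh-/- 3. The Id2 promoter held no consensus region.

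On chromosome 10, the 480 kb between the predicted gene Gm5426 and Btg1, an antiproliferative gene of quiescent lymphocytes, held 7 members, 3 of them found in every library. Calls numbered 7 and 6 in WT and 4, 4 and 6 in TPdh-/- (exact permutation p = 0.4). The member printed above, 415 kb from Btg1, had the highest folds, 2.53 and 2.45 in WT and 2.40, 2.22 and 2.25 in TPdh-/-, with both WT libraries above all TPdh-/- libraries. At 216 kb from Btg1 the folds were 2.26 and 1.90 in WT and 2.37, 1.99 and 1.88 in TPdh-/-, and at 242 kb they were 1.73 and 1.82 in WT and 2.25, 1.80 and 1.75 in TPdh-/-. The groups overlapped at both. One member, at 208 kb, lay 226 bp from the start of a processed pseudogene, Gm20091.

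**Figure D4:**
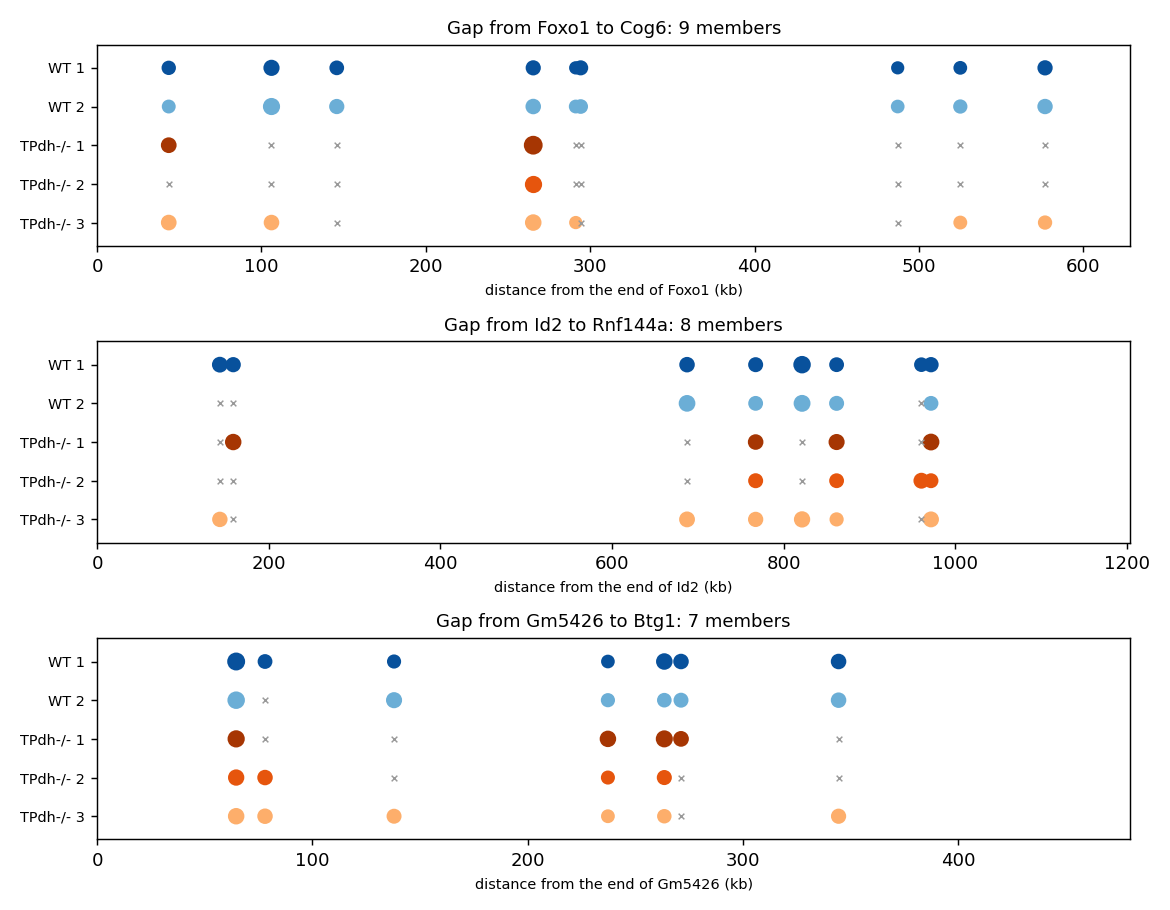
Members of the 3 gaps with the most far intergenic regions. The x axis is the distance in kb from the end of the gene on the left, and each row is a library. Filled circles are peaks, with an area that grows with fold enrichment, and crosses are members without a peak in that library. In the Foxo1 to Cog6 gap, WT 1 and WT 2 had peaks at 9 of 9 members and the TPdh-/- libraries at 2, 1 and 6.

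The other gap of chromosome 10, 296 kb from the small GTPase gene Rap1b to Mdm1, held 7 members, called 7 and 6 times in WT and 4, 3 and 6 times in TPdh-/-. Its 2 members found in every library lay 134 and 57.6 kb from Mdm1. The first had folds of 2.40 and 2.33 in WT and of 2.57, 2.50 and 2.33 in TPdh-/-, and the second, the widest of the gap at 2442 bp, had 2.12 and 2.29 in WT and 2.44, 2.34 and 2.57 in TPdh-/-, with the TPdh-/- libraries above WT, as at 11.6% of all regions found in every library.

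Many of the coding genes on either side of members had an acetylated promoter. Of 773 flanking genes, 42.6% had a consensus region at a promoter, against 21.7% of 3855 genes that border a gap of at least 100 kb without a member, and 30.0% of all 21829 coding genes. The share with a peak of the library in such a region was higher by 16.1 ± 3.92 percentage points (SD over 5 libraries) beside members, in 5 of 5 libraries (two-sided exact sign-flip permutation test, p = 0.0625). At least 1 flanking gene had such a region for 441 members (68.0%), and for the other 208 neither did. The empty gaps were not matched for length or base composition. Each library recounted the same genes, and members and promoter regions both came from the peaks of these libraries. The 5 libraries are thus not independent results here, and the SD and p do not measure independent replicates.

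**Figure D5:**
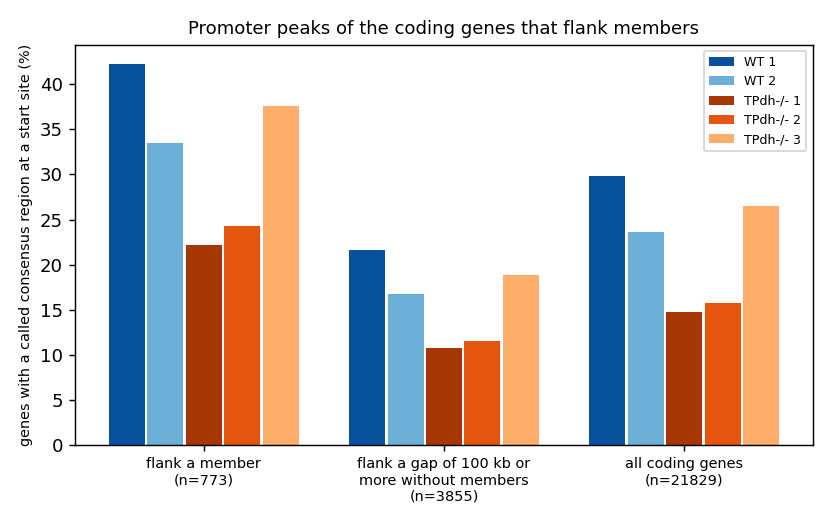
Percent of coding genes with a consensus region within 3 kb of a start site that held a peak of the library, by library, for genes that flank a far intergenic region, genes that flank only gaps of at least 100 kb without one, and all coding genes. In each library the bar for genes beside members is the highest, by 11.4 to 20.7 percentage points over genes beside empty gaps.

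Several regulators of T cells bordered members, read here as positions and not as targets. Of 16 listed transcription factors of memory and naive T cells, 8 flanked 22 members, and of 24 listed effector transcription factors, 11 flanked 27 members, against 3.54% of all coding genes. Genes of the T cell receptor and surface flanked few, 3 of 29 (Cd28, Ctla4 and Icos, with 5 members), cytokine and cytokine receptor genes 4 of 26 with 7 members, homing and chemokine genes 5 of 23 with 10, and cytotoxic and NK-type receptor genes 1 of 19, Fasl, with 4. Lists for other cells were not empty either: neural and adhesion genes, which often border long deserts, numbered 10 of 30 with 16 members, B cell genes 2 of 12 with 2, and myeloid genes 1 of 14 with 1. The lists were chosen with earlier results of these data known. They were not matched to all coding genes for the length of the gaps they border, and the part of gap length in these shares was not tested.

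Among the memory and naive factors, Satb1, a chromatin organiser of thymocytes, had a member found in every library on each side. The one towards Tbc1d5, 327 kb from Satb1, had folds of 2.18 and 2.20 in WT and of 2.16, 2.19 and 2.34 in TPdh-/-, and the one towards Kcnh8, 634 kb away, had 2.48 and 2.39 in WT and 2.36, 2.27 and 2.26 in TPdh-/-, with WT above TPdh-/-. Lef1, a Wnt pathway factor of naive and stem-like T cells, had a pair at 163 and 90.0 kb. The first had 2.18 and 2.42 in WT and 2.57, 2.32 and 2.36 in TPdh-/-, the second 2.28 and 2.45 in WT and 2.45, 2.64 and 2.52 in TPdh-/-, where all 3 TPdh-/- folds lay above both WT folds. Both pairs bordered promoters with a consensus region of their own.

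Bcl11b, needed for T cell identity, had a member found in every library at 264 kb, with folds of 2.60 and 2.75 in WT and of 2.80, 2.73 and 2.88 in TPdh-/-. Eomes, a T-box factor of memory CD8 T cells, had one at 81.0 kb, with 2.17 and 2.25 in WT and 2.08, 2.05 and 2.13 in TPdh-/-. Both WT folds exceeded all TPdh-/- folds there, as they did at 12.6% of all regions found in every library. Neither gene had a promoter region. The 5 members beside Myc, a driver of growth, lay 466 to 833 kb from it and were called 5 and 4 times in WT and 2 times in each TPdh-/- library, where the shares over all members were 91.8 and 73.3% in WT and 42.5, 42.8 and 74.7% in TPdh-/-. Jun, an AP-1 subunit, had 1 of its 3 members in every library, 250 kb away, with 2.49 and 2.31 in WT and 2.08, 2.16 and 2.40 in TPdh-/-.

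Among genes of T cell function, Fasl, the death ligand of cytotoxic cells, had the closest member found in every library, 45.1 kb away, with folds of 2.57 and 2.42 in WT and of 2.89, 2.45 and 2.66 in TPdh-/-. The region 320 kb from Ifng, which encodes interferon gamma, and 88.5 kb from Dyrk2 had 2.17 and 2.72 in WT and 2.62, 2.39 and 2.47 in TPdh-/-. S1pr1, the receptor for exit from lymph nodes, had one at 99.7 kb with 2.13 and 2.38 in WT and 2.43, 2.24 and 2.21 in TPdh-/-. The groups overlapped at all 3.

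Some members found in every library lay beside genes of other cells, among them the member near Cr2 given above, whose folds of 4.31 to 5.51 were the highest of the members found in every library beside a listed gene. The member 115 kb from Cebpb, a myeloid factor, and 126 kb from Ptpn1, a phosphatase gene, had 2.36 and 2.50 in WT and 2.45, 2.36 and 2.59 in TPdh-/-. The one 786 kb from Ebf1, a B cell factor, lay 56.2 kb from Clint1, whose promoter had a peak in every library, and had 1.94 and 2.00 in WT and 1.99, 2.00 and 1.98 in TPdh-/-. The one 1269 kb from Lrp1b was 98.3 kb from Ppp6c, with 2.56 and 2.51 in WT and 2.67, 2.65 and 2.47 in TPdh-/-.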

How the data were processed

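ChIP-seq of acetylated histones was analysed in 2 WT and 3 TPdh-/- libraries of TM cells. Per the paper's methods, the authors aligned reads to GRCm38 with BWA-mem (0.7.17), kept uniquely mapped reads with SAMtools (1.15.1), dropped reads in regions that ENCODE blacklists, and used MACS2 (2.2.6) for broad peaks of each library. The deposited broadPeak lists give each peak its fold enrichment, a ratio of signal over background, and −log10 p and q values, the lowest −log10 q being 1.0 to 1.03. An input control is not given in the sources used here. No read counts or authors' comparisons were used, so depth per library is unknown beyond the stated sequencing aim, and no count model could be fitted.

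Peaks were merged and classed by position with Python 3.11.15, numpy 2.4.6 and pandas 2.3.3, against 55413 genes of GENCODE (release M21, GRCm38). Sequence, G+C content and soft-masked repeats came from the RefSeq GRCm38.p6 genome. Gene bodies of every biotype were avoided, and start sites were those of coding transcripts of 21829 coding genes. The library was the unit of every test: an exact permutation test over the 10 assignments of 2 and 3 libraries, or an exact sign-flip test over the 32 sign patterns of 5 libraries, both two-sided, so that none can pass 0.05. Merging and classing were tested on simulated data, where all 8767 simulated regions were recovered. Members, gene lists and motifs were chosen with earlier results of these data known. Regions were named by rule: members of the 5 fullest gaps, the 8 of highest fold, the 5 widest, the 5 farthest, the 5 strongest found in WT alone, those found in TPdh-/- alone, and members in every library beside listed genes. Alternatives changed the q limit, list length, overlap, library minimum, distance, gene set and libraries used. Those on repeats, chromosome starts, G+C content and distance over 500 kb were chosen after seeing the data. The members of 1 of the 5 fullest gaps and 1 member beside a listed gene are not reported here.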

Additional observations from a re-analysis of the deposited data

Results flagged for a closer look

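The 5 regions before 3.1 Mb of chromosome 9, set aside from the members, had a peak in all 5 libraries each. They were 95.7 to 98.0% repeat, with folds of 1.50 to 2.64. They drew attention as signal outside the regions compared, in WT and TPdh-/- libraries alike.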

How the results depend on the processing

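Of 166 values recomputed under alternatives, 131 kept their direction or lay within 1.5 times the reported count. With lists of equal length, the log2 difference in members called turned from 0.67 to -0.15. Merging the cut lists anew left 279 members in place of 649, so the regions counted were not the same. With regions of at least 1 library, member peaks became narrower than other peaks (-0.21 in place of 0.07, log2), and the cause was not tested. No alternative brought a p below 0.05, which the design cannot reach, and the depth behind each list is unknown.

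Counts moved as follows. At a −log10 q of at least 5 there were 118 members, 22 of all 5 libraries, 26 of both WT libraries alone, 15 of WT 1 and TPdh-/- 3 alone, 0 of all TPdh-/- libraries alone and 0 gaps with 3 or more members. With lists of equal length these were 279, 92, 8, 5, 7 and 9. Beyond 100 kb there were 333 members, 70 of all 5 libraries, 37 of both WT libraries alone, 50 of WT 1 and TPdh-/- 3 alone and 27 gaps. Regions of at least 1 library gave 2341 members and 261 gaps, regions of at least 3 gave 396 and 22, and avoiding only the bodies of protein-coding genes gave 84 gaps. Peaks covering at least 50% of a region left 90 members of all 5 libraries. The single TPdh-/- member was lost, leaving 0, at a −log10 q of at least 2, with that cover, and without regions under 35% G+C. Leaving out each library in turn gave log2 differences in members called of 0.42 to 0.81, differences in the share of peaks of -1.88 to -0.258 points, 88 to 161 members of both WT libraries alone (highest without TPdh-/- 3), 1 to 9 of all TPdh-/- libraries alone, 103 to 181 of WT 1 and TPdh-/- 3 alone (highest without WT 2), and 24 to 45 gaps (lowest without WT 1). Patterns were not recomputed where the libraries left could not define them. A pattern over fewer libraries has fewer conditions, so rises in these pattern counts were built in.

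Replicate numbers 1 and 2 are shared by the groups, but nothing states that they pair the libraries, and with 2 pairs this could not be checked further: WT 1 called more members than WT 2 (596 and 476), TPdh-/- 1 about as many as TPdh-/- 2 (276 and 278). With a replicate block over these numbers, the difference in members called was 0.94 (log2) and that in the share of peaks -0.82 percentage points, both without a test.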
